A study of Mus musculus with 6 samples.

Results

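The guidance ligands and receptors are the semaphorins, plexins, neuropilins, ephrins, Eph receptors, netrins, Unc5 receptors, Slits and Robos. They were taken by gene symbol from the gene lists of the cortical and hippocampal matrices, joined by Ensembl identifier, which left 70 genes of 27514 shared identifiers. By family these were 7 class 3 semaphorins, 13 semaphorins of classes 4 to 7, 9 plexins, 2 neuropilins, 8 ephrins, 14 Eph receptors, 7 netrins and Unc5 receptors and 7 Slits and Robos. The symbol rule also took 3 transcripts antisense to Plxna4, and no measured value entered the choice.

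Guidance cues were first described as signals that steer growing axons by attraction or repulsion, and the same proteins steer endothelial tip cells, mural cells and glial precursors. Class 3 semaphorins are secreted and act through a neuropilin that binds the cue and a plexin that carries the signal, whereas most semaphorins of the other classes are membrane proteins that bind plexins directly. Ephrins are bound to the membrane and signal to Eph receptors on a touching cell, with signalling also running back into the ephrin-bearing cell. Netrins are laminin-related secreted proteins read by Unc5 and Dcc receptors, and Slits are secreted proteins read by Robo receptors. In vessels, ephrin-B2 is a classical mark of arteries and its receptor EphB4 of veins.

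Whole single-cell suspensions were sequenced with no enrichment for any cell type, by droplet-based single-cell RNA sequencing on the 10x Chromium system. The cortical preparation came from the cerebral cortex of 3-week-old female WT C57Bl/6J mice and the hippocampal preparation from hippocampi of 5-week-old female WT C57Bl/6J mice, with tissue of 3 mice pooled in each. All animals were perfused with PBS, and the tissue was dissociated with dispase II, papain and DNase I before myelin was removed on a Percoll gradient. Each pool was loaded as 3 technical replicates, so that a preparation is 1 biological sample, no test between groups was possible and SDs below cover library-to-library error only. Region, age, preparation and gene list change together between the preparations and cannot be told apart.

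Total UMIs ran from 39662203 to 42097490 per cortical library and from 43963706 to 50024850 per hippocampal library, and the filters kept 13320 and 14210 cells. Clusters were named from fixed marker lists, so a class name stands for cells like that type. A cluster of 345 cortical cells and a cluster of 122 hippocampal cells met no list and entered no class. In cortex the classes held 5905 microglia, 161 macrophages, 2607 endothelial cells, 366 pericytes, 184 vascular smooth muscle cells (VSMCs), 71 fibroblasts, 2616 astrocytes, 65 oligodendrocytes, 114 neurons and 297 erythroid cells. In hippocampus they held 5604 microglia, 220 macrophages, 2043 endothelial cells, 589 pericytes, 89 VSMCs, 50 fibroblasts, 1893 astrocytes, 356 oligodendrocyte precursor cells (OPCs), 165 committed oligodendrocytes, 1011 oligodendrocytes, 480 neurons, 809 epithelial and 199 ependymal cells. Barcodes that occurred in more than 1 library of a preparation marked 61 cortical cells (0.458%) and 687 hippocampal cells (4.83%), mostly epithelial. Leaving these cells out moved none of 76 named levels by more than the library spread, but no named level was in the epithelial class. By the same measure, 31 of 64 levels moved without cells carrying markers of another lineage. Some classes carried markers of a neighbouring type. The macrophage class also held monocyte markers, which summed to 12656 CPM in cortex and 8561 CPM in hippocampus beside 4877 and 6387 CPM of macrophage markers, and T/NK markers summed to 97.5 and 1210 CPM. The 8 endothelial markers summed in pericytes to 55.2% (cortex) and 36.5% (hippocampus) of their level in endothelial cells, the 8 microglial markers summed in hippocampal OPCs to 40.1% of their level in microglia, beside 52103 CPM of 5 erythroid markers, and the 8 pericyte markers summed in fibroblasts to 43.0% and 49.8% of their level in pericytes. All 8 endothelial and all 8 microglial markers reached 10 CPM in those pericytes and OPCs, and none was at 0. Cortical neurons were a small cluster led by cell-cycle and immature neuron genes, in which 5 neutrophil markers summed to 6801 CPM, from 0 to 14743 CPM per library. Endothelial, monocyte and T/NK markers summed in that cluster to 3323, 1114 and 853 CPM, beside 2556 CPM of neuron markers. Levels were also computed in cells that carried fewer than 3 detected markers of any single other lineage. This left 120 and 252 pericytes, 45 OPCs and 54 cortical neurons, but no cortical and only 7 hippocampal fibroblasts. All immune types counted as a single lineage there, as did pericytes, VSMCs and fibroblasts, and also the oligodendrocyte types. Monocyte or T/NK markers in macrophages and pericyte markers in fibroblasts were therefore no reason to leave a cell out. The part of these markers in the levels was not tested beyond that comparison.

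Levels are CPM, the UMIs of a gene summed over a class and scaled to the same total of UMIs in every class, given with the SD over the 3 libraries. A gene counted as detected in a class with at least 10 UMIs and 10 CPM, and as led by 1 class when its highest class reached at least 2 times the next after 5 CPM was added to both. Of the 70 genes, 56 were detected in cortex and 59 in hippocampus, beside 40.8% and 49.3% of all listed genes. A single class led 24 of 56 in cortex and 22 of 59 in hippocampus, which is 42.9% and 37.3%, whereas 24.6% and 25.6% of all detected genes were led by 1 class. Cortical leads fell to fibroblasts for 8 genes (2.76% of all detected genes were led by fibroblasts), to oligodendrocytes for 6 (4.63%), to astrocytes for 4 (4.13%), to VSMCs for 3 (2.24%), and to endothelial cells (0.205%), pericytes (0.607%) and microglia (2.68%) for 1 each. Hippocampal leads fell to endothelial cells for 6 genes (1.76%), to neurons (3.32%), committed oligodendrocytes (1.44%) and fibroblasts (1.36%) for 3 each, to VSMCs (1.64%) and astrocytes (1.93%) for 2 each, and to pericytes (0.659%), oligodendrocytes (1.91%) and epithelial cells (1.26%) for 1 each. Microglia, the largest class, expressed few of these genes, 12 in each preparation (62.4% and 58.5% of all detected genes were detected there), against 21 and 20 in endothelial cells (64.7% and 61.3%), 34 in hippocampal OPCs (67.3%) and 39 in hippocampal neurons (68.1%). The cortical erythroid cells led none (0.221% of all genes) and hippocampal OPCs led none (0.536%). The count for OPCs depended on the clustering, since OPCs led Epha5 and Sema5b when guidance genes were kept in the clustering, when libraries were merged without integration, at a resolution of 1 and when cells were classed by their own markers. Pericytes expressed 25 in cortex (68.8%), fibroblasts 29 in cortex (64.0%) and 19 in hippocampus (46.6%), cortical oligodendrocytes 18 (62.5%), hippocampal VSMCs 13 (57.1%), hippocampal ependymal cells 19 (65.9%) and cortical erythroid cells 17 (45.6%). The cortical erythroid class also held microglial and endothelial markers, at 18.5% and 18.9% of their levels in microglia and endothelial cells. Only 45 of its 297 cells carried few markers of another lineage, so its count is not that of erythroid cells alone. The count for hippocampal OPCs is not that of OPCs alone either, since 76 of those 356 cells were classed as OPCs by their own markers.

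**Figure D1:**
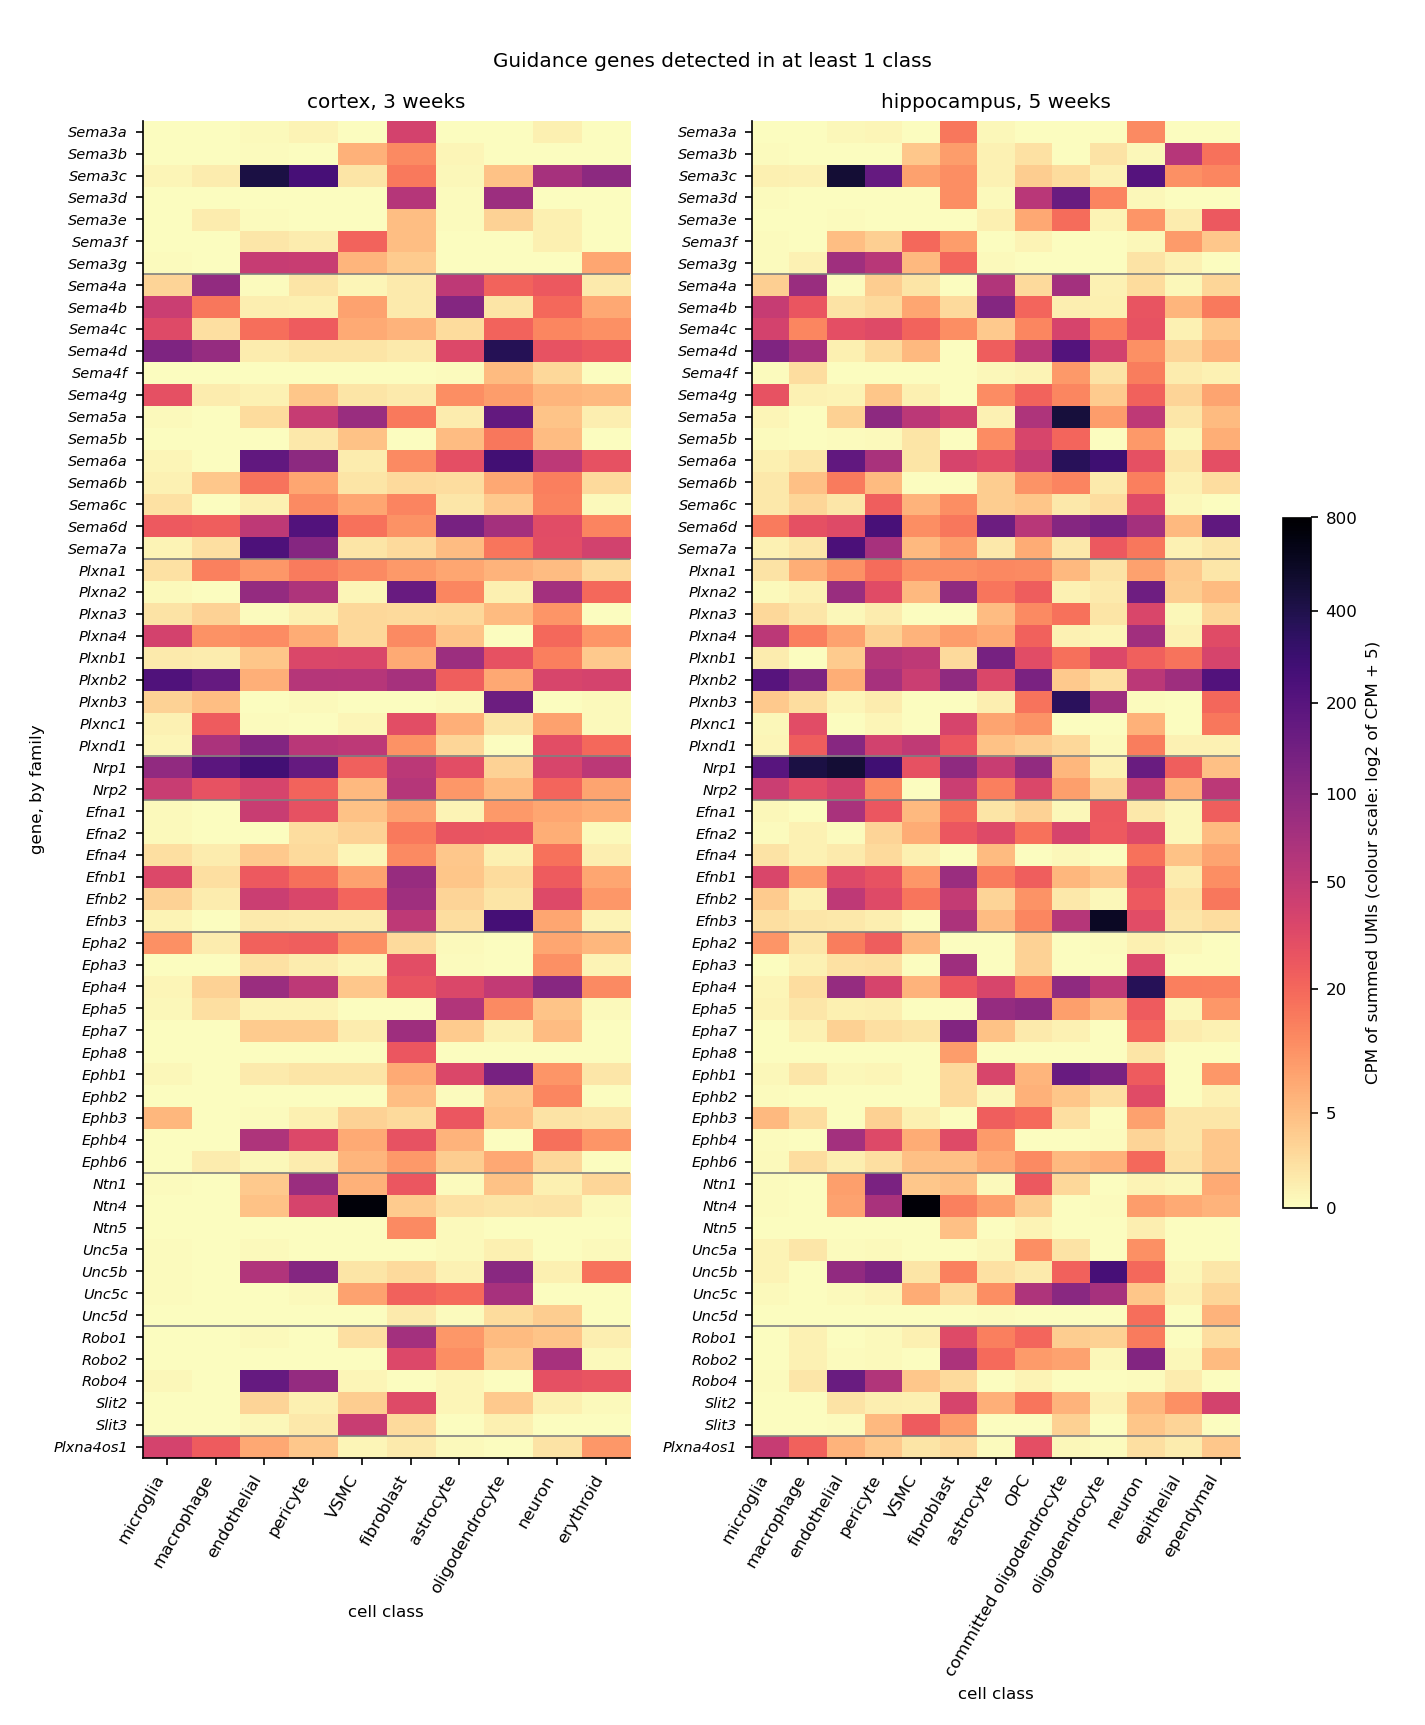
Heatmap of the guidance genes detected in at least 1 class, ordered by family, against cell class for the cortical (left) and hippocampal (right) preparation, with colour giving the CPM of summed UMIs on a log2 scale after 5 CPM was added. Dark cells stand out for Ntn4 in VSMCs, Efnb3 in oligodendrocytes, Sema3c in endothelial cells and Nrp1 across endothelial, macrophage and microglial columns.

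The same class led in both preparations for 10 genes, which were Efnb1, Epha3 and Epha7 in fibroblasts, Ntn4 and Slit3 in VSMCs, Plxnb1 and Sema4b in astrocytes, Sema7a in endothelial cells, Ntn1 in pericytes and Efnb3 in oligodendrocytes. These were 10 of 54 genes detected in both (18.5%), beside 11.4% of all genes. Counts of leads, per class and shared, depend on the class sets, which differ. Cortex had a single oligodendrocyte class, while hippocampus had OPCs, committed oligodendrocytes and oligodendrocytes, and also epithelial and ependymal classes. Plxnb3, led by oligodendrocytes in cortex and committed oligodendrocytes in hippocampus, is thus not counted as shared, and a gene at similar levels in several of these classes could have no lead. In cells with fewer than 3 markers of another lineage, 27 of 49 detected genes in cortex (55.1%, beside 28% of all genes) and 22 of 59 in hippocampus (37.3%, beside 23.3%) were led by 1 class. There, 15 genes had the same leading class in both, namely Efna1, Ephb4, Robo4, Sema3c, Sema3g and Sema7a in endothelial cells, Ntn4, Sema3f and Slit3 in VSMCs, Ntn1 in pericytes, Efna4, Epha4 and Plxna3 in neurons, Sema4b in astrocytes and Efnb3 in oligodendrocytes, 15 of 49 (30.6%) beside 13.6% of all genes. Too few fibroblasts were left there to form a class. Fibroblast leads thus dropped out, and genes with fibroblasts as the next class could gain a lead.

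Of the secreted class 3 semaphorins, Sema3c and Sema3g were highest in endothelial cells in both preparations, Sema3g at 46.6 ± 1.9 and 78.2 ± 1.9 CPM with pericytes at 45.9 and 57.1 CPM. Without cells bearing markers of another lineage, Sema3g was led by endothelial cells in both preparations. Endothelial Sema3c read 429, 431 and 427 CPM in the cortical libraries and 491, 482 and 470 CPM in the hippocampal ones, so that all 3 hippocampal libraries lay above the cortical ones by a small margin. The median log2 ratio of all genes tested in endothelial cells was -0.11 (cortex over hippocampus), an offset in the same direction. Hippocampal neurons were next, with 202, 225 and 180 CPM of Sema3c, and no neuron library reached the endothelial level. Pericytes carried 249 ± 19 CPM of Sema3c in cortex and 166 ± 26 CPM in hippocampus, and without cells bearing markers of another lineage pericytes were no longer among the 3 highest classes. Sema3f was highest in VSMCs, at 21.4 ± 1.6 CPM in cortex and 19.5 ± 3.0 CPM in hippocampus, and Sema3b in the hippocampal epithelial cells, at 61.6, 41.0 and 65.5 CPM per library. The epithelial level rests on a class in which 62.3% of cells shared a barcode with another library and whose median depth was 875 UMIs. Sema3d stood in the oligodendrocyte lineage, with 159 ± 14 CPM in hippocampal committed oligodendrocytes, 55.6 ± 7.1 CPM in OPCs and 13.2 ± 1.0 CPM in oligodendrocytes. Without cells carrying markers of another lineage OPCs were at 178 ± 77 CPM, from 17 UMIs, and committed oligodendrocytes at 150 ± 17 CPM. Sema3a, the first-described repulsive semaphorin, was led by cortical fibroblasts at 38.8 ± 11 CPM, and Sema3e was detected only in hippocampus, where ependymal cells had 24.9 ± 6.4 CPM.

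Neuropilins are the cue-binding coreceptors of these semaphorins and of VEGF. Nrp1 was highest in endothelial cells, with 255, 276 and 263 CPM in cortical and 474, 486 and 484 CPM in hippocampal libraries, followed by macrophages at 191 ± 40 and 424 ± 10 CPM. Nrp1 in VSMCs was only 22.4 ± 4.4 and 28.1 ± 1.8 CPM, so vessel wall cells differed more than 10-fold among themselves. Nrp2 had no leading class. In cortex fibroblasts were highest at 59.4 ± 44 CPM, with a spread that covers microglia at 45.3 ± 1.5 CPM and endothelial cells at 37.1 ± 5.4 CPM. In hippocampus ependymal cells, neurons, fibroblasts and microglia lay at 54.6 ± 21, 49.5 ± 4.5, 44.2 ± 37 and 44.1 ± 2.1 CPM, which do not differ beyond the library spread.

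Among the plexins, the signalling receptors of semaphorins, only Plxnb1 and Plxnb3 were led by 1 class in each preparation, and Plxnd1 was in hippocampus alone. Plxnd1, an endothelial plexin that reads Sema3e and, with neuropilins, Sema3c, was highest in endothelial cells at 113 ± 5.9 and 107 ± 8.5 CPM, with VSMCs at 52.7 ± 14 and 50.7 ± 6.9 CPM. Plxnb1, a receptor of Sema4d, was led by astrocytes, with 90.9, 74.4 and 75.7 CPM in cortex and 148, 128 and 125 CPM in hippocampus. The astrocyte lead of Plxnb1 is narrow, since pericytes reached 91.9 ± 39 CPM in cortex and 99.6 ± 11 CPM in hippocampus once cells with markers of another lineage were left out. Plxnb2, another class 4 semaphorin receptor, had no leading class, with 217 ± 8.7 and 203 ± 1.9 CPM in microglia, 167 ± 34 and 121 ± 32 CPM in macrophages and 6.66 ± 1.4 and 6.96 ± 0.79 CPM in endothelial cells. Hippocampal ependymal cells (213 ± 13 CPM) could not be set apart from microglia for Plxnb2 within that spread. Plxnb3 belonged to the oligodendrocyte lineage, and Plxna2, which pairs with neuropilins, was spread over cortical fibroblasts (161 ± 23 CPM), hippocampal neurons (148 ± 15 CPM) and endothelial cells (89.8 ± 8.3 and 85 ± 7.6 CPM). Plxna4 read 38.7 ± 2.0 and 54.2 ± 1.9 CPM in microglia and 76.8 ± 5.4 CPM in hippocampal neurons. Microglia also carried 38.5 and 46.2 CPM of Plxna4os1, which lies on the opposite strand inside Plxna4, and reads of that pair cannot be told apart if strand was not used in counting.

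Of the membrane-bound semaphorins, Sema7a, the only GPI-anchored semaphorin, read 229, 223 and 226 CPM in cortical and 233, 234 and 230 CPM in hippocampal endothelial cells, and the libraries of each preparation lay within a few CPM of each other. Pericytes came next for Sema7a at 109 ± 8.9 and 70.7 ± 5.0 CPM and were no longer among its 3 highest classes after cells with markers of another lineage were left out. Sema4b, a transmembrane semaphorin, was led by astrocytes with 103, 113 and 121 CPM in cortex and 115, 114 and 103 CPM in hippocampus, with microglia at 44.3 ± 4.9 and 46.4 ± 2.2 CPM. Sema4d, a semaphorin known from lymphocytes and from oligodendrocytes, was at 121 ± 1.3 and 119 ± 4.0 CPM in microglia, above the 40.3 ± 1.2 CPM of hippocampal oligodendrocytes but below the 372 CPM of cortical oligodendrocytes (515, 332 and 253 CPM per library). Its receptor gene Plxnb1 stood at 80.6 and 134 CPM in astrocytes. Sema4a was highest in macrophages at 91.6 ± 23 and 85.1 ± 14 CPM.

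Sema6d and Sema6a are transmembrane ligands of A-type plexins. Sema6d was highest in pericytes, with 192, 228 and 227 CPM in cortical and 255, 237 and 229 CPM in hippocampal libraries, and cells with few markers of another lineage reached 449 ± 105 and 416 ± 54 CPM. Next for Sema6d came astrocytes in cortex at 132 ± 5.5 CPM, and ependymal cells at 177 CPM and astrocytes at 152 ± 11 CPM in hippocampus. Sema6a was shared by oligodendrocytes (263 ± 81 CPM in cortex and 276 ± 10 CPM in hippocampus) and endothelial cells (175 ± 6.3 and 176 ± 1.6 CPM), and no class passed 2 times the next.

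Efnb3, the gene of ephrin-B3, was led by oligodendrocytes, with 255, 307 and 179 CPM in cortex and 558, 561 and 564 CPM in hippocampus, where its level was 8.07 times that of the next class after 5 CPM was added. No cortical library reached a hippocampal one, but the classes were not alike. The cortical class held 65 cells and also carried all 6 committed oligodendrocyte markers at 10 CPM or more. Hippocampal committed oligodendrocytes had less Efnb3 than oligodendrocytes, and the part of such a mix in the cortical level was not tested. Efnb1, the gene of ephrin-B1, was led by fibroblasts at 87.3 ± 15 and 83.8 ± 8.5 CPM, with microglia at 33.9 ± 1.4 and 35.7 ± 1.3 CPM. Efna1, an A-class ephrin that binds EphA2, was endothelial at 45 ± 1.6 and 68.0 ± 1.1 CPM, and Epha2 was at 21.5 ± 4.0 and 14.7 ± 0.39 CPM in the same cells and at 22.6 ± 5.0 and 23.5 ± 0.16 CPM in pericytes.

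The Eph receptors Epha3 and Epha7 were led by fibroblasts. Epha7 read 52.7, 45.5 and 123 CPM in cortical and 145, 130 and 82.6 CPM in hippocampal fibroblasts, ranges that overlap, and the next class was neurons at 5.15 and 20.9 CPM. Epha3 lay at 30.3 ± 4.1 and 79.1 ± 14 CPM in fibroblasts, only 2.18 and 2.08 times the next class after 5 CPM was added. Fibroblast leads could not be checked in cells free of other lineages, because almost no fibroblast was left there. Epha4, a receptor of both ephrin classes, was highest in hippocampal neurons, at 391, 406 and 288 CPM, every library above the 96.1 ± 33 CPM of committed oligodendrocytes and the 88.6 ± 3.2 CPM of endothelial cells. Epha5 was an astrocyte receptor in cortex at 61.7 ± 1.9 CPM, and in hippocampus astrocytes (89.1 ± 3.9 CPM) and OPCs (101 ± 30 CPM) did not separate. Ephb1, a receptor of B-class ephrins, was highest in oligodendrocytes in cortex (130 ± 42 CPM) and in committed oligodendrocytes in hippocampus (162 ± 6.9 CPM).

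Mural cells were set apart by netrins and a Slit. Ntn4, a netrin of vascular basement membranes, read 871, 623 and 698 CPM in cortical and 707, 803 and 727 CPM in hippocampal VSMCs, ranges that overlap, against 37.3 ± 16 and 68.7 ± 32 CPM in pericytes, the next class. After 5 CPM was added the VSMC level was 17.6 and 10.2 times that of pericytes, and for cortex this was the largest lead over a next class in any of the 70 genes. Ntn1, the founding axon attractant of the family, was led by pericytes instead, with 82.7, 80.3 and 84.5 CPM in cortex and 119, 132 and 125 CPM in hippocampus. The next class in hippocampus was OPCs at 25.2 CPM. There the Ntn1 lead was not kept with guidance genes in the clustering, with libraries merged without integration or at a resolution of 1. In cortex the lead was not kept with libraries merged. In pericytes with few markers of another lineage Ntn1 reached 244 ± 65 and 276 ± 17 CPM, whereas VSMCs held 6.46 ± 3.2 CPM of Ntn1 in cortex. Slit3, a secreted Robo ligand, was led by VSMCs at 45.7 ± 5.9 CPM (51.2, 39.5 and 45.7 CPM) in cortex and 24.2 ± 5.8 CPM (23.0, 19.6 and 30.9 CPM) in hippocampus.

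Receptors of these ligands were spread over several classes. Unc5b, a netrin receptor of endothelial cells, was at 62.8 ± 2.9 and 93.3 ± 5.3 CPM in endothelial cells, 111 ± 12 and 123 ± 23 CPM in pericytes and 249 ± 3.3 CPM in hippocampal oligodendrocytes. The pericyte level of Unc5b was 192 ± 43 and 163 ± 16 CPM in cells with few markers of another lineage, and Ntn1 and Unc5b were therefore both present in pericytes. Robo4, the endothelial Robo, read 173, 166 and 161 CPM in cortical and 157, 157 and 164 CPM in hippocampal endothelial cells. Robo4 in pericytes was 90.8 ± 9.8 and 62.1 ± 10 CPM, but 2.63 and 2.32 CPM in pericytes with few markers of another lineage. Slit2, a ligand of Robo1, was low, at 32.7 ± 9.2 CPM in cortical fibroblasts and 39.1 ± 16 CPM in hippocampal ependymal cells, and Robo1 was highest in fibroblasts at 74.0 ± 31 and 32.6 ± 15 CPM. Robo2, a neuronal receptor of Slits, was highest in neurons at 70.4 ± 59 and 114 ± 11 CPM.

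**Figure D2:**
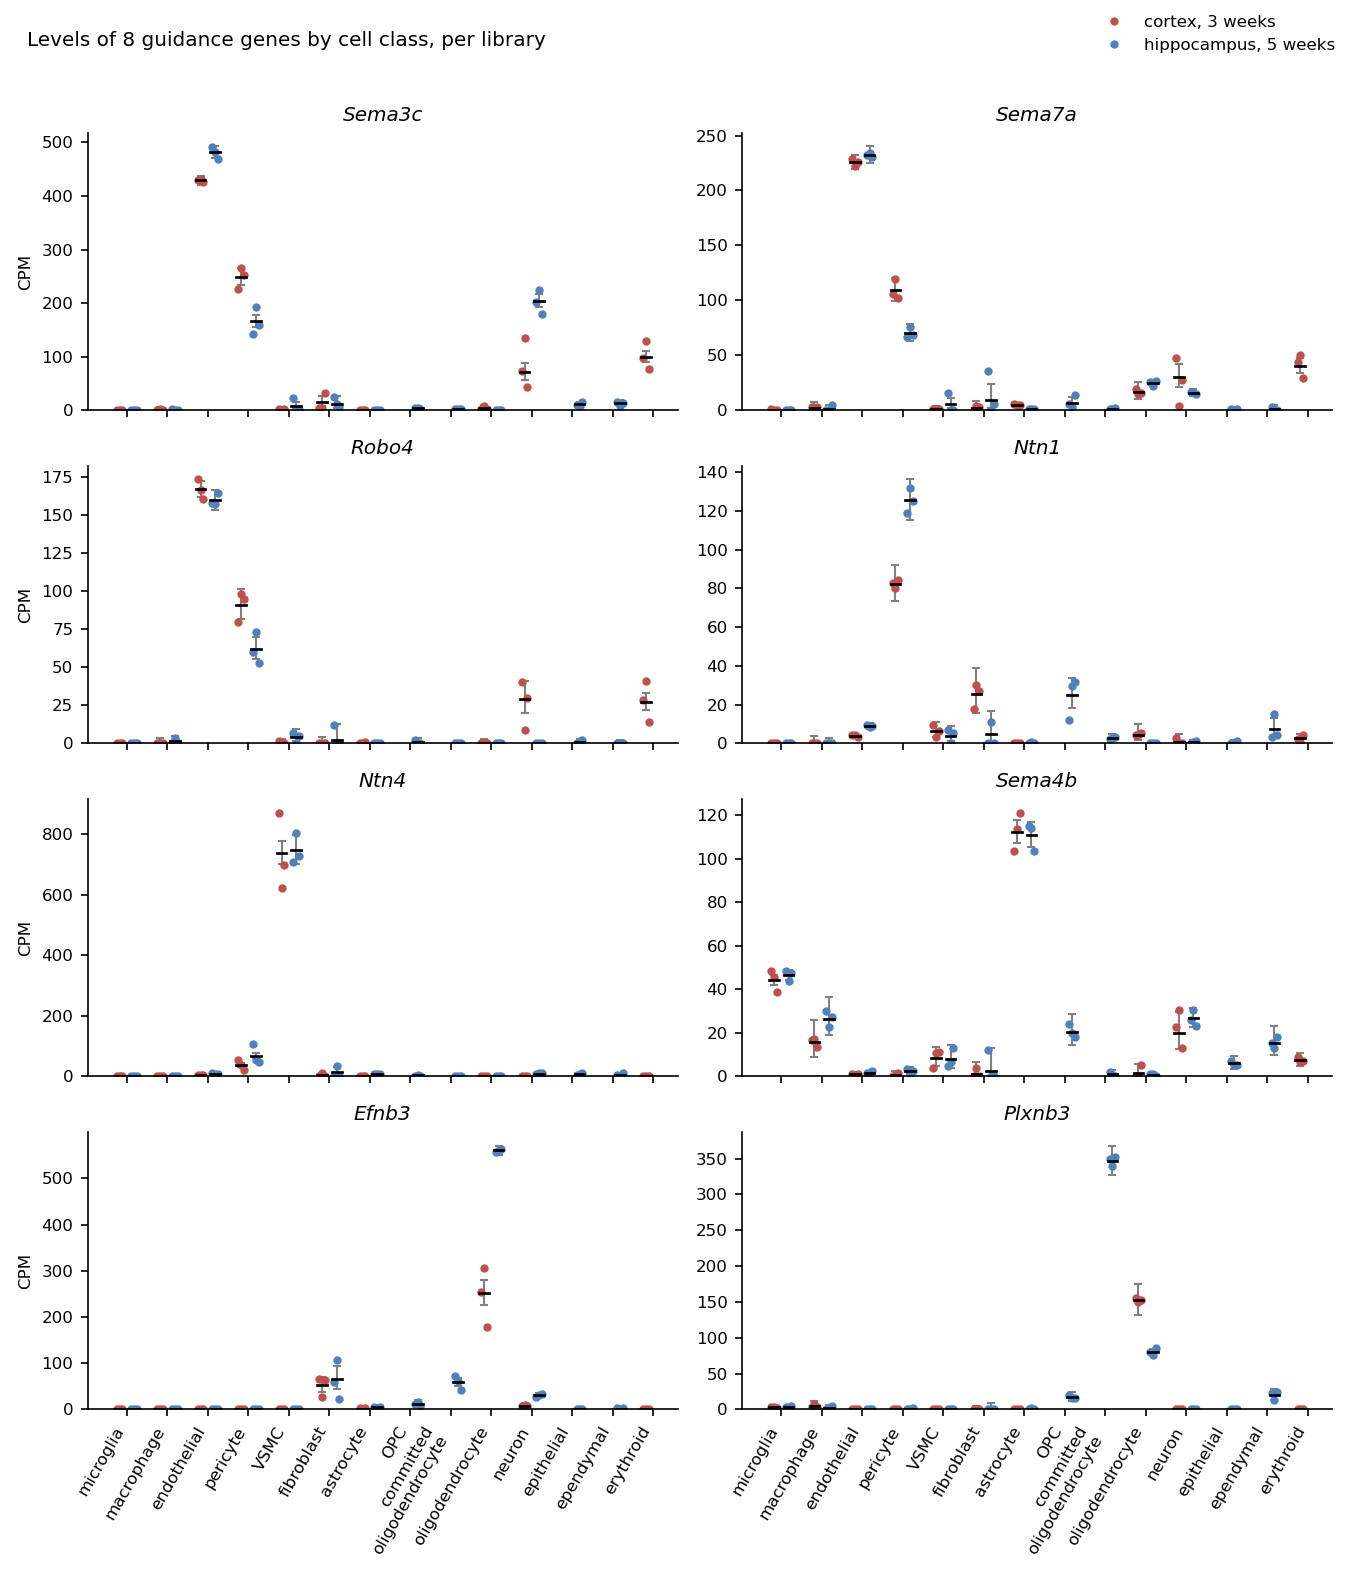
CPM of 8 guidance genes (y axis) in each cell class (x axis), with points for the 3 libraries of the cortical (red) and hippocampal (blue) preparation, a black line for the pooled level and grey bars for its exact 95% Poisson interval. In both preparations all 3 libraries of the leading class lie above those of every other class for Sema3c, Sema7a and Robo4 (endothelial cells), Ntn1 (pericytes) and Ntn4 (VSMCs).

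Endothelial cells were clustered again on their own to ask how guidance genes vary along the vessel tree, and subclusters were named from arterial, venous and angiogenic markers that include no guidance gene. Arterial-like cells numbered 249 in cortex and 138 in hippocampus, venous-like cells 338 and 209, and angiogenic cells 245 in cortex but only 21 in hippocampus, which was too few to use. The other 1775 and 1675 endothelial cells kept no segment name. Between arterial-like and venous-like cells, 4 of 25 guidance genes in cortex were at least 2-fold higher in arterial-like cells (4.91% of all genes tested) and 4 in venous-like cells (2.97%). In hippocampus 7 of 27 were higher in arterial-like (4.57%) and 4 in venous-like cells (3.43%). Without cortical replicate 3 the cortical venous count was 2. Past 2-fold in both preparations were Sema3g, Unc5b, Efnb2 and Ntn4 on the arterial side and Nrp2, Sema6a and Sema6b on the venous side.

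Promoter sequences of these segment genes are shown because these genes passed 2-fold in the same direction in both preparations. Those of 6 of the 7 genes are given, without Sema6a. Each is up to 250 bases before the RefSeq start on GRCm38.p6, written 5' to 3' on the strand of the gene and without bases that GENCODE counts as exon of the same gene. Capitals mark matches on either strand to a searched motif, which were TGGGAA (RBPJ core), ATTGTT (SOX core), AGGTCA (nuclear receptor core), CACGTG (E-box of HEY and HES factors), TATAA and CCAAT, the last of these chosen together with TATAA after the sequences had been seen. The Ntn4 stretch lies in the intron of a longer transcript.
Sema3g, arterial side, chr14:31217623-31217859, plus strand: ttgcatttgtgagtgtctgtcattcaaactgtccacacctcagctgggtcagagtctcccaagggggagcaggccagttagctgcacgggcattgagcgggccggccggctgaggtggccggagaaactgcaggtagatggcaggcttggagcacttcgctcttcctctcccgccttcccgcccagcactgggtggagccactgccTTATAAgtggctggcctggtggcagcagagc
Efnb2, arterial side, chr8:8661243-8661492, minus strand: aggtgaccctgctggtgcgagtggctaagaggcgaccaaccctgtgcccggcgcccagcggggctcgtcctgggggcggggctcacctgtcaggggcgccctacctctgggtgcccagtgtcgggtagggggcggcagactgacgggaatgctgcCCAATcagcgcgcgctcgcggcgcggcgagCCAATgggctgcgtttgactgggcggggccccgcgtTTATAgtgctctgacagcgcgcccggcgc
Unc5b, arterial side, chr10:60831582-60831831, minus strand: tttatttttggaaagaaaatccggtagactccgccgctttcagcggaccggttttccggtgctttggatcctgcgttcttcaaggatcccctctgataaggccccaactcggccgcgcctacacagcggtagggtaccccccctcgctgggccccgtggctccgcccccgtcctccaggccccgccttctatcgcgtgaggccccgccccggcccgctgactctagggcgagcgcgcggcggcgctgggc
Ntn4, arterial side, chr10:93640799-93641048, plus strand: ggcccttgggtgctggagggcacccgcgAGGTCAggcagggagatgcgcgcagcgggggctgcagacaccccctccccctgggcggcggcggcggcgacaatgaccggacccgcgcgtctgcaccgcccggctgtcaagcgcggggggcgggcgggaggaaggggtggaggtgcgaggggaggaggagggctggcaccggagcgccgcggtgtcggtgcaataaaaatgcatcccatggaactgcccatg
Nrp2, venous side, chr1:62703067-62703284, plus strand: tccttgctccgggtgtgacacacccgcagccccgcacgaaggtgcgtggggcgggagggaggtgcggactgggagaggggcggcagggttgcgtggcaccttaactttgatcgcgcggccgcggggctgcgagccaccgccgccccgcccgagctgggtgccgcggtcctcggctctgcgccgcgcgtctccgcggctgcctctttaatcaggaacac
Sema6b, venous side, chr17:56140344-56140593, minus strand: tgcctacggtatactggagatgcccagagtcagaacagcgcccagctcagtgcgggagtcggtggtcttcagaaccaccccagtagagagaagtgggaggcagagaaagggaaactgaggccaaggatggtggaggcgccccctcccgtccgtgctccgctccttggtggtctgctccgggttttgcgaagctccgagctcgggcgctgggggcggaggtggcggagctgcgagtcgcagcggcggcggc

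Sema3g and Efnb2 held a TATAA match, at -44 and -43 from the start in Sema3g and at -29 in Efnb2, which 22.8% of 32851 promoters of that length also hold. Efnb2 held CCAAT at -95 and -65 (33.8% of promoters) and Ntn4 held AGGTCA at -222 (14% of promoters). None of the 6 windows held TGGGAA (21.6%), ATTGTT (9.42%) or CACGTG (6.02%). Their GC content ran from 60.4% in Sema3g to 73.2% in Ntn4, beside a median of 52.4% over all promoters. These matches describe the letters in the windows and no binding.

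Sema3g, a secreted semaphorin that binds neuropilin-2, was the most arterial of the genes. Arterial-like cells read 251, 250 and 263 CPM of Sema3g in cortex and 385, 370 and 337 CPM in hippocampus, whereas venous-like cells had 0.933 and 2.11 CPM from 4 and 5 UMIs. The log2 ratio with 5 CPM added was 5.45 in cortex and 5.70 in hippocampus, and the counting interval of the plain ratio ran from 106 to 1005 and from 73.5 to 534. Unc5b followed with 166, 173 and 190 CPM in cortical and 195, 258 and 207 CPM in hippocampal arterial-like cells against 4 and 2 UMIs in venous-like cells, a log2 ratio of 4.93 and 5.28. With so few venous UMIs the plain Unc5b ratio is bounded by 73.2 and 697 in cortex and by 71.9 and 2174 in hippocampus. Efnb2, the arterial ephrin, read 155, 174 and 133 CPM in cortical and 150, 126 and 130 CPM in hippocampal arterial-like cells, against 3.97 and 5.92 CPM in venous-like cells, a log2 ratio of 4.15 and 3.68. No arterial library of these 3 genes overlapped a venous one.

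Ntn4 was also higher on the arterial side, at 21.8 ± 8.6 and 35.1 ± 18 CPM against 0.933 and 2.54 CPM, a log2 ratio of 2.17 and 2.41, although these levels were far below those of VSMCs. On the venous side Nrp2, the coreceptor that binds Sema3g, read 61.1, 89.8 and 75.4 CPM in cortical and 95.1, 45.5 and 133 CPM in hippocampal venous-like cells against 6.53 and 2.98 CPM in arterial-like cells. Sema3g and Nrp2 thus lay on opposite sides, and the log2 ratio of Nrp2 was -2.81 and -3.55. Sema6a was at 229 ± 9.5 and 252 ± 14 CPM in venous-like cells and 70.5 ± 7.0 and 49.2 ± 16 CPM in arterial-like cells, a log2 ratio of -1.63 and -2.24. Sema6b, another ligand of A-type plexins, gave -1.09 and -1.53 from levels of 27.1 and 24.5 CPM in venous-like cells. Ephb4, the venous receptor of ephrin-B2, was higher in all 3 venous than arterial libraries of each preparation, yet by less than 2-fold. Its venous-like level was 86.1 ± 12 and 99.3 ± 12 CPM and its arterial-like level 59.2 ± 4.4 and 64.2 ± 1.5 CPM, a log2 ratio of -0.50 and -0.59.

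Some genes passed 2-fold in 1 preparation alone. In hippocampus these were Sema3f (33.6 ± 4.8 CPM in arterial-like against 0.423 CPM in venous-like cells), Sema6d (30.6 ± 5.9 against 12.3 ± 3.3 CPM), Efna5 and, on the venous side, Plxna4os1. In cortex it was Plxnb2, on the venous side at 11.9 ± 3.3 against 3.05 ± 1.9 CPM. Efna5, an A-class ephrin not detected in any whole class, had 22 UMIs in hippocampal arterial-like cells (16.4 CPM) and none in venous-like cells, and is at least 12.9-fold higher when 3 counts over the group are taken as the floor. In cortex Sema3f and Efna5 were at 7.40 and 6.96 CPM in arterial-like cells, under the minimum of 10 CPM.

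**Figure D3:**
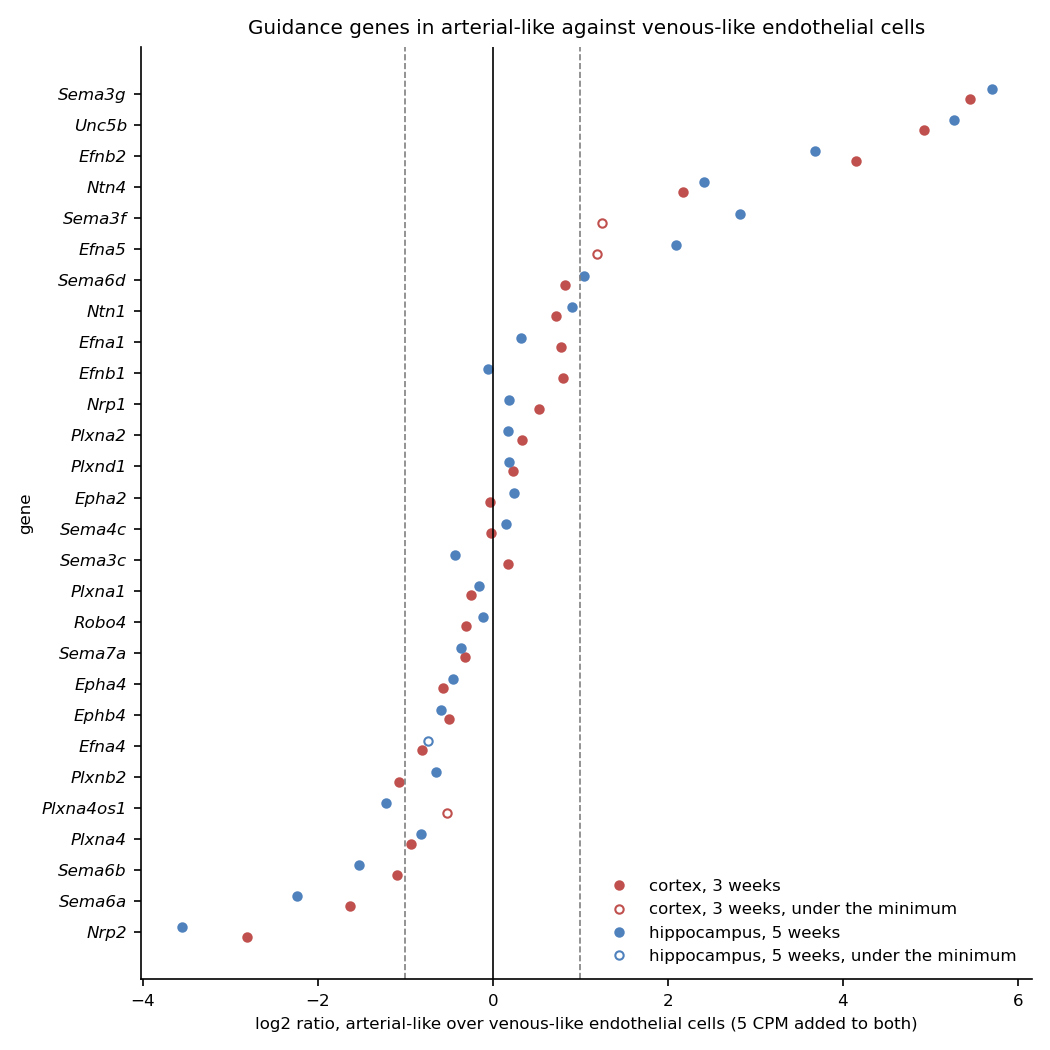
Log2 ratio of each guidance gene in arterial-like over venous-like endothelial cells (x axis, 5 CPM added to both) for cortex (red) and hippocampus (blue), with open points for genes under the minimum of 10 UMIs and 10 CPM and dashed lines at 2-fold. Sema3g, Unc5b, Efnb2 and Ntn4 lie to the right and Nrp2, Sema6a and Sema6b to the left in both preparations.

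Angiogenic cells, marked by Apln and other tip cell genes, were set beside the other cortical endothelial cells. The subclusters with no segment name included a subcluster of 610 cells led by Unc5b, Hey1 and Efnb2, and others led by astrocyte (119 cells), pericyte (42), microglial (24) and erythroid (22) genes. Beside all of these, 3 of 22 guidance genes were at least 2-fold higher in angiogenic cells (2.76% of all genes tested) and 4 lower (2.91%). Higher were Plxnd1, with 257, 244 and 270 CPM against a mean level of 93.5 ± 7.1 CPM, Sema6d at 125 ± 4.2 against 42.6 ± 4.7 CPM, and Nrp2 at 59.7 ± 6.6 against 23.3 ± 2.3 CPM. Lower were Sema3c, with 144, 156 and 153 against 497 ± 19 CPM, Sema3g at 3.31 against 36.8 ± 3.3 CPM, Unc5b at 17.4 ± 1.4 against 76.0 ± 5.9 CPM and Efnb2 at 14.1 ± 4.2 against 47.4 ± 4.5 CPM. The ligand Sema3c and its receptor Plxnd1 were thus at opposite ends in these cells. Nrp1 stayed below 2-fold in that comparison, at 442 ± 39 against 275 ± 11 CPM. Beside venous-like cells, 5 of 23 guidance genes were at least 2-fold higher in angiogenic cells (3.5%), namely Sema6d, Unc5b, Plxnd1, Nrp1 and Efnb2, and 4 lower (3.26%), namely Sema3c, Epha4, Efna4 and Plxnb2. Sema3g and Nrp2 were not among them.

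The oligodendrocyte lineage was represented in the hippocampus by OPCs, committed oligodendrocytes (cells leaving the precursor state, marked by Gpr17, Enpp6 and Bmp4) and oligodendrocytes. The OPC class was mixed, since only 76 of its 356 cells were classed as OPCs by their own markers. Its levels below are those of the mixed class and not of OPCs alone. Guidance genes peaked in different classes of the lineage. Sema5a, a semaphorin of oligodendrocyte lineage cells, read 468, 396 and 513 CPM in committed oligodendrocytes, but 64.4 ± 28 CPM in OPCs and 9.12 ± 0.46 CPM in oligodendrocytes, so every committed library lay above all libraries of the other steps. Plxnb3, a receptor of Sema5a, was also highest in committed oligodendrocytes, at 349, 340 and 353 CPM, but was next in oligodendrocytes at 80.3 ± 4.6 CPM and lowest in OPCs at 17.0 ± 2.4 CPM. Sema4d peaked there too, at 211 ± 40 CPM against 54.4 ± 14 CPM in OPCs and 40.3 ± 1.2 CPM in oligodendrocytes, and so did Sema3d.

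Other genes were carried into the oligodendrocyte class or were highest in it. Sema6a was at 46.2 ± 3.5 CPM in OPCs, 356 ± 78 CPM in committed oligodendrocytes and 276 ± 10 CPM in oligodendrocytes, where the last 2 overlap between libraries. Ephb1 was at 5.85 ± 2.6, 162 ± 6.9 and 129 ± 6.0 CPM along the same steps. Unc5b and Efnb3 were the late genes. Unc5b reached 248, 253 and 247 CPM in oligodendrocytes against 21.8 ± 6.1 CPM in committed oligodendrocytes, and Efnb3 was at 12.9 ± 4.5 CPM in OPCs, 58.9 ± 16 CPM in committed oligodendrocytes and 561 ± 3.0 CPM in oligodendrocytes. Unc5c, a netrin receptor, was about level across these classes, the mixed OPC class included, at 64.4 ± 30, 105 ± 18 and 71.3 ± 4.5 CPM. OPC levels are the least certain here, since only 45 of 356 cells had few markers of another lineage, and in those cells Sema3d was 178 ± 77 CPM and no longer below the 150 ± 17 CPM of committed oligodendrocytes. In the cortical oligodendrocyte class Plxnb3 read 156, 149 and 153 CPM and Sema5a 170 ± 23 CPM, values of a class that mixes these steps.

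**Figure D4:**
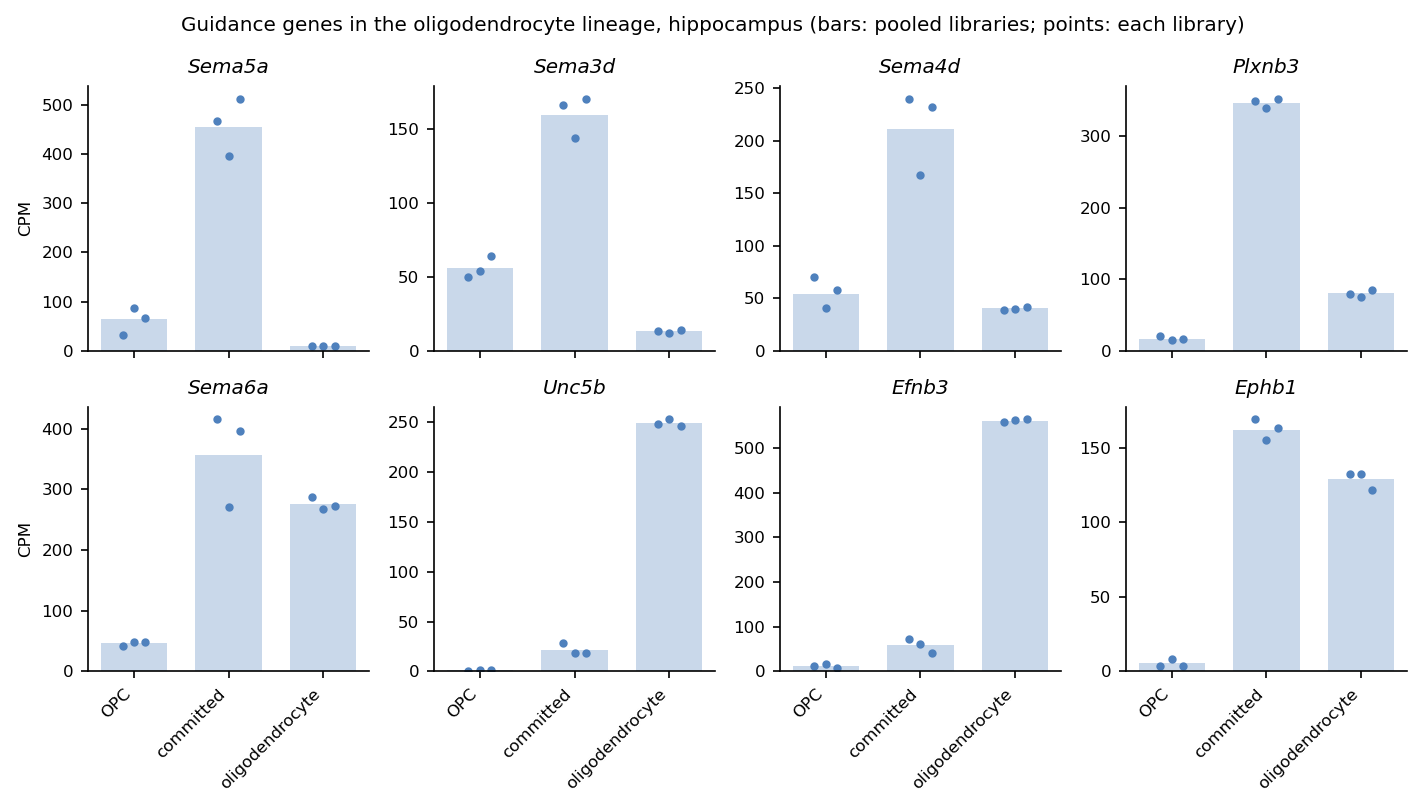
CPM (y axis) of 8 guidance genes in hippocampal OPCs, committed oligodendrocytes and oligodendrocytes, with bars for the pooled level and points for the 3 libraries. The OPC class also held cells of other types. Sema5a, Sema3d, Sema4d and Plxnb3 are highest in committed oligodendrocytes, whereas Unc5b and Efnb3 are highest in oligodendrocytes.

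Hippocampal neurons came from 4 clusters that differed in their guidance genes. The largest, 302 cells led by the immature granule neuron genes Neurod1, Igfbpl1 and Calb2, held most of the neuronal Sema3c, at 326, 383 and 287 CPM, and Epha4 at 532 ± 94 CPM. In 79 cells led by Reln and Lhx1, Sema3c was 1.17 CPM from 1 UMI, while Robo2 read 396, 445 and 339 CPM and Unc5b 107 ± 5.7 CPM. Robo2 was also high in 48 cells led by Dlx and Gad2 genes, at 305 ± 91 CPM, and was 35.7 ± 9.3 CPM in the largest cluster. Slit1, a brain Slit below the detection rule in every class, reached 37.2 ± 15 CPM from 14 UMIs in those 48 cells. The names of these clusters follow their leading genes, chosen after the values were seen.

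Levels of the 70 genes were then set beside each other across the preparations in 7 classes and in 2 endothelial segments. Those classes were not alike in make-up. Monocyte markers were higher in the cortical than the hippocampal macrophage class, and cortical fibroblasts included a cluster of 20 cells led by Igfbp6 and Prg4. A shallow cortical cluster of 345 cells (median 1184 UMIs), closest to endothelial cells, got no name and was left out. A shallow hippocampal cluster of 271 cells (median 1408 UMIs) was named endothelial and kept. The part of this in the endothelial comparison was not tested. The median log2 ratio of all genes tested lay between -0.11 and -0.05 (cortex over hippocampus), so that ratios are read against that small offset. Endothelial cells had no guidance gene past 2-fold in either direction among 21 (1.17% of all genes were higher in cortex and 1.05% in hippocampus). Microglia had none of 12 higher in cortex (0.985%) and 1 higher in hippocampus (0.669%), pericytes none (1.42%) and 1 of 25 (1.25%), VSMCs none (2.03%) and 1 of 14 (1.46%), and astrocytes none (1.7%) and 1 of 22 (1.76%). Macrophages had 1 (3.98%) and 2 of 13 (5.32%), fibroblasts 7 (5.36%) and 3 of 30 (6.99%), arterial-like cells none (1.6%) and 1 of 23 (1.45%) and venous-like cells 1 (1.27%) and 2 of 22 (1.25%).

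Among the genes higher in hippocampus, Nrp1, Sema4c and Sema5a recurred between classes, and Nrp1 also passed 2-fold in venous-like cells. Microglia read 99.6, 90.5 and 91.4 CPM of Nrp1 in cortex and 191, 203 and 196 CPM in hippocampus, a log2 ratio of -1.03, and the libraries did not overlap. In macrophages Nrp1 was 142, 220 and 200 CPM against 417, 422 and 436 CPM (-1.13), while monocyte markers were 12656 against 8561 CPM and erythroid markers 7763 against 8.17 CPM. In the 77 and 130 cells classed as macrophages by their own markers, Nrp1 was 442 against 758 CPM (-0.77), below 2-fold and without overlap. In venous-like endothelial cells Nrp1 was 108, 136 and 140 CPM against 285, 271 and 330 CPM (-1.17), without overlap. The direction was the same in all 7 classes, with a log2 ratio of -0.85 in endothelial cells, -0.65 in pericytes and -0.51 in astrocytes, where libraries did not overlap, while those of VSMCs and fibroblasts did.

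Other differences touched 1 or 2 classes. Astrocytes had 4.01, 4.23 and 4.48 CPM of Efnb1 in cortex and 17.2, 14.4 and 14.2 CPM in hippocampus, a log2 ratio of -1.14. Pericytes had 50.3, 47.9 and 40.2 CPM of Sema5a in cortex and 93.8, 96.9 and 104 CPM in hippocampus (-1.01). Neither gene overlapped between the preparations in these classes. The 8 pericyte markers were also lower in cortical pericytes, at 11855 against 19803 CPM, and erythroid markers were at 12313 against 18.9 CPM. Without cells carrying markers of another lineage, Sema5a in pericytes was 110 against 152 CPM (-0.44), below 2-fold and with overlapping libraries. Plxnd1 was higher in cortical macrophages, at 79.5, 61.2 and 61.2 CPM against 36.1, 7.03 and 29.9 CPM (1.35), but 24.1 against 17.6 CPM (0.37) with overlap in cells classed as macrophages by their own markers. Sema4c, a transmembrane semaphorin, was lower in cortex in macrophages (1.99 from 2 UMIs against 12.9 CPM) and VSMCs (7.45 against 21.1 CPM). In venous-like cells Efna1 was 26.8 ± 5.4 against 62.1 ± 13 CPM and Efna4 12.1 ± 1.5 against 3.38 ± 2.9 CPM, and in arterial-like cells Sema3f was 7.40 ± 6.2 against 33.6 ± 4.8 CPM.

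Fibroblast differences rest on few counts, since the classes held 71 and 50 cells. Without cortical replicate 1 or 3 the count of gene and class pairs higher in cortex over all classes was 4 or 5, in place of 8. Of the 7 genes higher in cortex, Sema3d was 59.4 against 11.6 CPM, Unc5c 21.8 CPM against 1 UMI, and Efna4 12.1 CPM against no UMI, a ratio of at least 1.74 when 3 counts over the class are taken as the floor. Higher in hippocampus were Sema6a (37.2 ± 17 against 12.1 ± 3.9 CPM), Epha3 (79.1 ± 14 against 30.3 ± 4.1 CPM) and Sema5a (39.6 ± 31 against 15.8 ± 9.1 CPM), the last with overlapping libraries. Without cells carrying markers of another lineage, no fibroblast comparison could be made, and 1 guidance gene in all classes together was higher in cortex.

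**Figure D5:**
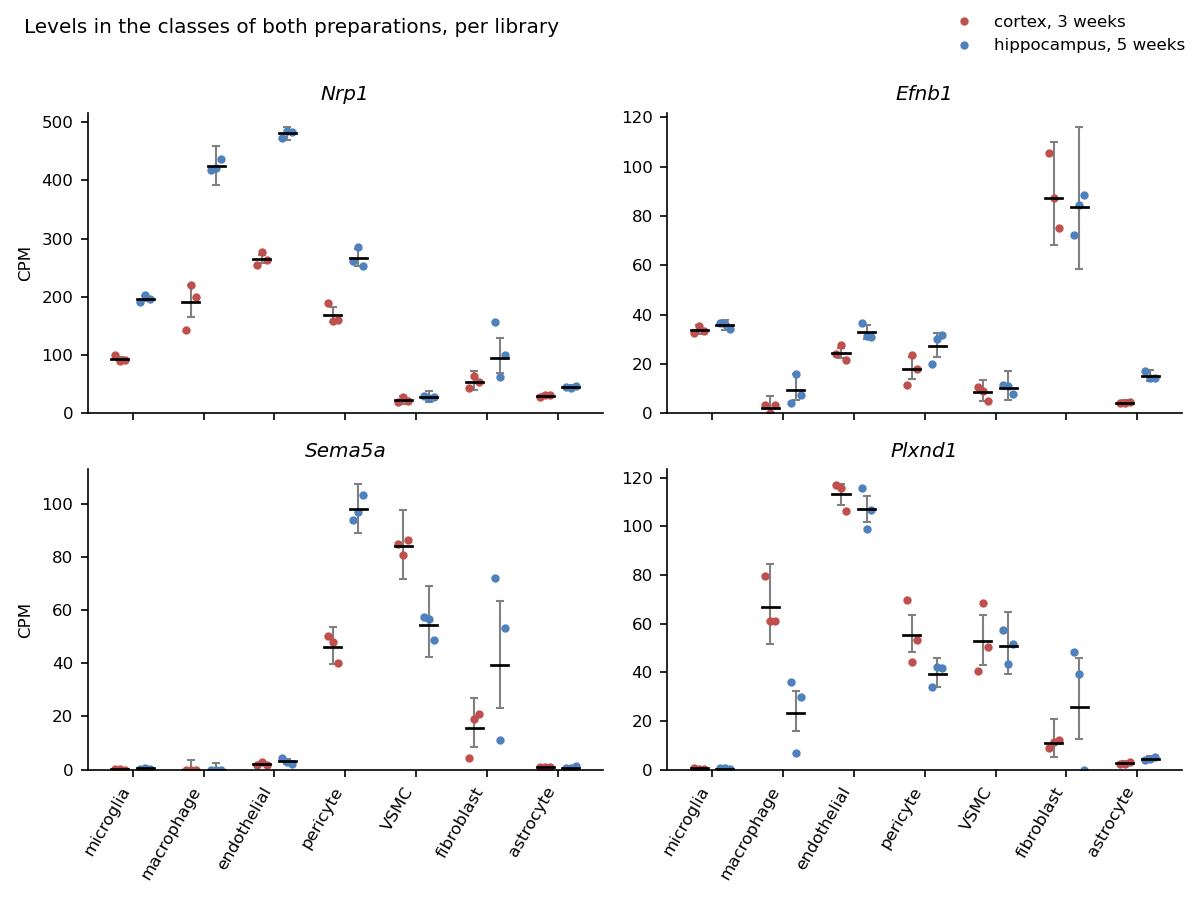
CPM (y axis) of Nrp1, Efnb1, Sema5a and Plxnd1 in the 7 classes of both preparations (x axis), with points for the 3 libraries of cortex (red) and hippocampus (blue), black lines for pooled levels and grey bars for exact 95% Poisson intervals. The hippocampal Nrp1 points lie above the cortical ones in microglia, macrophages, endothelial cells, pericytes and astrocytes.

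Coreceptors, effectors and proteases of these pathways that are no members formed a list of 55 genes, of which 53 and 51 were detected. A single class led 17 and 17, which is 32.1% and 33.3%, beside 24.6% and 25.6% of all detected genes. The same class led 6 of the listed genes in both preparations, with 53 and 51 detected. That share is near the 11.4% of all genes detected in both and does not set the list apart. The 6 were Crmp1, Dpysl5 and Draxin in neurons, Flrt2 in fibroblasts, Pak1 in oligodendrocytes and Srgap2 in microglia. Srgap2, which acts downstream of Robo receptors, was at 487 ± 25 and 626 ± 3.5 CPM in microglia, and Draxin, a ligand of the netrin receptor Dcc, at 104, 115 and 106 CPM in hippocampal neurons. Between arterial-like and venous-like cells, 6 of 33 pathway genes in cortex and 4 of 32 in hippocampus were higher on the arterial side, and 3 and 4 on the venous side, beside 4.91%, 4.57%, 2.97% and 3.43% of all genes in that order. Flrt2, a ligand of Unc5 receptors, gave the largest venous ratio, at 295 and 238 CPM in venous-like against 11.8 and 6.72 CPM in arterial-like cells, opposite to the arterial Unc5b. Unlike the members, the listed pathway genes were not left out of the clustering that made the classes and subclusters. Their counts and ratios are therefore not independent of it, and Flrt2 was among the leading genes of the hippocampal venous-like subcluster.

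The remaining detected members were low. Cortical fibroblasts led Epha8 at 25.5 ± 6.0 CPM and Ntn5 at 12.1 ± 4.4 CPM, from 21 and 10 UMIs, and neither was detected in hippocampus. The hippocampal fibroblast class held 429767 UMIs in total against 824848 in cortex. With the minimum of 10 UMIs, Ntn5 at its cortical level would not have counted as detected there, and Epha8 would have been near the limit. Astrocytes led Ephb3, a receptor of B-class ephrins, at 25.6 ± 2.4 CPM in cortex, while in hippocampus astrocytes (22.7 ± 0.48 CPM) and OPCs (19.3 ± 9.0 CPM) did not separate. Microglia led Sema4g at 29.2 ± 1.1 CPM in cortex and held 27.8 ± 1.5 CPM in hippocampus. Hippocampal neurons were highest for Ephb2 (31.7 ± 3.1 CPM), Ephb6 (19.7 ± 3.8 CPM), Unc5d (18.2 ± 5.7 CPM), Sema4f (14.8 ± 4.1 CPM) and Sema6c (32.4 ± 8.0 CPM). Of these, Ephb2 and Unc5d were led by neurons, and Ephb6, Unc5d and Sema4f were not detected in cortex. Sema5b stood in the oligodendrocyte lineage, at 36.3 ± 19 CPM in OPCs and 16.0 ± 6.3 CPM in cortical oligodendrocytes, and Unc5a only reached 11.7 ± 2.4 CPM in OPCs and 11.4 ± 1.2 CPM in neurons of the hippocampus. Efna2, Plxna1 and Plxnc1 had no leading class, with Efna2 at 26.8 ± 1.9 and 32.9 ± 3.3 CPM in astrocytes, Plxna1 at 15.2 ± 2.4 and 18.7 ± 4.2 CPM in pericytes, and Plxnc1 at 30.3 ± 3.6 and 37.2 ± 12 CPM in fibroblasts.

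Chromosomal neighbours in these families differed in their highest class or in being detected in the following cases. Robo4 and Robo3 lie next to each other on chromosome 9 (37401897 to 37415115, plus strand, and 37415669 to 37433246, minus strand, GRCm38), yet Robo3 reached no more than 1.72 CPM in any class beside the endothelial level of Robo4. Efna1, Efna3 and Efna4 lie on chromosome 3 between 89271733 and 89338028 on the minus strand, with Efna1 highest in endothelial cells, Efna4 in neurons at 17.2 ± 12 and 17.3 ± 1.5 CPM, and Efna3 below 5 CPM throughout. On chromosome 5, Sema3d, Sema3a, Sema3e and Sema3c follow each other between 12383385 and 17730268, and their highest classes were the oligodendrocyte lineage, fibroblasts in cortex, ependymal cells in hippocampus and endothelial cells. Below the detection rule in every class of both preparations were 9 members, which were Efna3, Efna5, Epha1, Epha6, Epha10, Robo3, Slit1, Plxna4os2 and Plxna4os3. At these depths that says only that they were not detectable at 10 UMIs and 10 CPM in classes of this size.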

How the data were processed

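Counts of UMIs per gene and cell were used as deposited. The authors made these counts with Cell Ranger 5.0.1 against mm10, whereas the matrix headers give software versions 3.0.1 and 3.1.0, and the gene lists of the preparations differ, so only shared identifiers were used. Whether counting used strand is not given in the sources used here. The 70 members and all lists were chosen with earlier results of these data known.

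Cells with 250 to 6000 genes and under 25% mitochondrial UMIs were kept, after the study's filter for all cell types. The study's lower mitochondrial limit for vascular cells was not applied. Under a limit of 10%, 14 of 73 levels of named genes moved by more than the library spread. Each preparation was clustered on its own in Seurat 5.3.0 (R 4.3.3), with its 3 libraries integrated on 2000 variable genes from which members were left out, 30 dimensions and a resolution of 0.5. A cluster was named when at least 3 markers of a list reached 20% of its cells and 2-fold over the other cells and its 10 leading genes did not favour another list. Cells with the highest doublet scores from Scrublet (scanpy 1.11.5), 638 and 581, were left out after naming. Their number was set by an assumed rate of 0.8% per 1000 barcodes of a library and was not found by Scrublet. UMIs were then summed per class and library (Python 3.11.15, scipy 1.17.1), and classes of at least 30 cells were used. Exact Poisson intervals at 95% cover counting error only. Between groups, genes with at least 10 UMIs and 10 CPM on either side were compared, and a fold of at least 2 with 5 CPM added was counted. With 1 pool of 3 mice per preparation no test was made. The 2-fold comparison between preparations and the counting interval of a ratio were tested on counts simulated with Poisson error. Filtering, doublet removal, clustering, naming and the rule for genes led by 1 class were not simulated.

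Named genes were, per family, those led by the same class in both preparations and the 2 of highest summed UMIs, the largest differences between preparations, every gene past 2-fold the same way in both vessel comparisons, and ligand and receptor pairs known from textbooks. Further members are given so that each of the 70 is accounted for, and these, the neuron clusters, the angiogenic cells and the lineage genes were chosen after their values were seen. Promoters are from RefSeq and positions from GENCODE M21.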

Additional observations from a re-analysis of the deposited data

How the results depend on the processing

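No paired analysis was possible because the numbers of the technical replicates name loadings of separate pools and no test was made. Of the levels of named genes, 52 of 76 moved by more than the library spread after thinning, 38 of 76 with the mean CPM of single cells, 31 of 64 without cells carrying markers of another lineage and 24 of 69 with cells classed by their own markers. Without cells carrying markers of another lineage Sema3d turned from lower to higher in OPCs than in committed oligodendrocytes, Sema3a was led by hippocampal neurons and Efnb2 by cortical neurons. Genes led by 1 class numbered 15 in cortex and 12 in hippocampus with 20 CPM added (24 and 22 with 5 CPM), and 20 to 25 and 19 to 26 with 1 library left out. Of 8 gene and class pairs higher in cortex between the preparations, 1 was counted without cells carrying markers of another lineage, 3 with cells classed by their own markers, 2 after thinning to 1000 UMIs, 2 with 20 CPM added, 4 with at least 30 UMIs and 20 CPM, and 4 to 8 with 1 library left out. Of 9 pairs higher in hippocampus, which are 6 genes, 4 were counted after thinning, 1 with 20 CPM added, 16 with no minimum, 4 with at least 30 UMIs and 20 CPM, and 8 to 10 with 1 library left out. Between vessel segments the hippocampal arterial count was 3 after thinning (7), the hippocampal venous count 2 after thinning and 2 with 20 CPM added (4), and the cortical venous count 2 with 20 CPM added (4). With 1 library left out these counts ran from 7 to 8, 3 to 6 and 2 to 6, and the cortical arterial count from 4 to 5. Detected genes numbered 52 to 54 and 58 to 59 with 1 library left out. Thinning and the larger minimum leave fewer counts by construction, and for the other settings the cause was not tested. The lead of Efnb3 was kept under 19 and 20 of 20 alternatives and that of Ntn4 under 20 and 19. Ntn1 kept its lead under 19 and 17, whereas Epha3 kept it under 9 and 16 and Plxnb1 under 12 and 11. For each preparation, 3 of the 20 alternatives left out a library of the other preparation and could not change a lead. Adding 1 CPM and taking no minimum only loosen the rule, so a lead could not be lost there either. The rule of 2 times the next class was missed without cortical replicate 1 for Epha3, Plxnb1 and Sema7a, without cortical replicate 3 for Epha3 and Sema7a, without hippocampal replicate 2 for Epha3 and Slit3, and without hippocampal replicate 3 for Slit3. The limits are 1 pool per preparation, few fibroblasts, and markers of other lineages in pericytes, OPCs, cortical neurons and cortical erythroid cells.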
